A study of Mus musculus with 6 samples.

Results

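Small leucine-rich proteoglycans are secreted matrix proteins, and 10 of their genes were described in femoral RNA of ovariectomized (OVX) mice: Dcn, Lum, Bgn, Fmod, Omd, Ogn, Aspn, Prelp, Podn and Kera. The members were matched by gene symbol, with no threshold on their values, and each matched 1 of the 54532 genes of the deposited table. The study holds 6 samples in 2 groups of 3, all labelled wild type. The controls, labelled OVX, received saline, and the other group, labelled Zin, was given zingerone, which occurs in ginger, orally for 8 weeks at a daily dose of 100 mg/kg. No source used here gives strain or age. A label matched the values of 3 libraries, all from the OVX group with saline, here called libraries 1, 2 and 3. The zingerone group was not analysed here, so no effect of zingerone on these genes was tested. The titles place libraries 1, 2 and 3 at 8, 9 and 10 weeks, 1 library each, so week and library cannot be told apart.

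Each of these proteins is built around a curved stack of leucine-rich repeats that binds collagen fibrils and sets their diameter and spacing. Many members carry a glycosaminoglycan chain, chondroitin or dermatan sulfate on decorin and biglycan and keratan sulfate on lumican, fibromodulin, keratocan and osteomodulin, and several bind growth factors of the TGF-beta family. In bone, biglycan and decorin are made by osteoblasts and their precursors, and mice that lack biglycan form too little bone.

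The libraries held 16581579 to 17017907 reads over all genes, and 14011 genes had a mean FPKM of 1 or more. FPKM are fragments per kilobase of gene, scaled to a depth for each library. The depth behind the FPKM was 17279919, 16845977 and 16533661 reads in libraries 1, 2 and 3, against 17017907, 16964740 and 16581579 reads listed. Ratios of FPKM rest on the former, and the chi-square tests below on the latter. The extraction text names ground femur, whereas the characteristics name RAW264.7, a macrophage-like cell line. All 12 listed osteoblast markers and all 8 erythroid markers passed that filter, with summed levels of 1575 to 5047 FPKM and 43227 to 55457 FPKM. Library 2 stood apart. Its summed chondrocyte markers were at 499 FPKM, against 22.0 and 35.4 in libraries 1 and 3, and its summed skeletal muscle markers at 148 FPKM, against 1688 and 1008. Summed osteoblast markers were at 2202, 5047 and 1575 FPKM in libraries 1, 2 and 3.

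The promoter stretches of 3 members are shown first, because Aspn, Omd and Ogn lie side by side on chromosome 13 and yet Omd was highest in library 2, where Aspn and Ogn were lowest. Each is the 250 bases before the gene's start in RefSeq (GRCm38.p6, the assembly of mm10), on the plus strand, read 5′ to 3′. Capitals mark the letters TATAAA, as in a TATA box, or TGTGGT, as in the core of a RUNX site, on either strand. Whether any match acts as such a site was not tested.
Aspn, chr13:49544193-49544442: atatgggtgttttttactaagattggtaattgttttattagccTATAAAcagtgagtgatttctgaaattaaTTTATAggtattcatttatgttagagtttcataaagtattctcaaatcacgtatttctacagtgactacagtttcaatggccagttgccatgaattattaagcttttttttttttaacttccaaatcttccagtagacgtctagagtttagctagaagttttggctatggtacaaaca
Omd, chr13:49582212-49582461: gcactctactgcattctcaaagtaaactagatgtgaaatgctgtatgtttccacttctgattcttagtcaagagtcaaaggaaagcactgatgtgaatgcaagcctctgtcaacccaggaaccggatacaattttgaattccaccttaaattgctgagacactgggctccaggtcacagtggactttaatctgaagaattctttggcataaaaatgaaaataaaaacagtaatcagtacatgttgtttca
Ogn, chr13:49607765-49608014: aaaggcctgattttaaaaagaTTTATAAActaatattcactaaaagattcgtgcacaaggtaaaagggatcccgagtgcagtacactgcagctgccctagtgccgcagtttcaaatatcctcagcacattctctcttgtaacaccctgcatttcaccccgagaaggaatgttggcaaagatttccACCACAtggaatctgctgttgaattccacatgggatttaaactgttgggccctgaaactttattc

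The stretch before Aspn held TATAAA 2 times, beginning 207 and 178 bases before the start, once on each strand. That before Ogn held it on both strands in overlapping letters, beginning 229 and 227 bases before the start, and TGTGGT on the minus strand beginning 65 bases before it. Neither motif was found in these letters before Omd. Among 32851 such stretches of the RefSeq table, 12.4% held TATAAA and 14.0% held TGTGGT, so a match describes the letters only. Of the 10 members, 8 had an entry in that table, and Dcn and Lum had none.

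Biglycan, lumican and decorin were the most abundant members. Per listed gene length, Bgn stood at 63.9 ± 28.6 FPKM (SD, n = 3), Lum at 42.0 ± 18.9 and Dcn at 38.3 ± 19.3. Among all genes listed they ranked 736, 1233 and 1375 by mean FPKM. Together they made up 73.7%, 74.7% and 66.7% of the summed FPKM of the 10 members in libraries 1, 2 and 3. Prelp stood at 17.2 ± 8.92 FPKM, Fmod at 12.9 ± 9.33, Ogn at 10.9 ± 1.70, Omd at 6.73 ± 3.94, Aspn at 5.50 ± 3.58 and Podn at 1.40 ± 0.296 (SD, n = 3). Kera, best known from the cornea, was at 0.225 ± 0.0599 FPKM and was the one member under the filter.

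**Figure D1:**
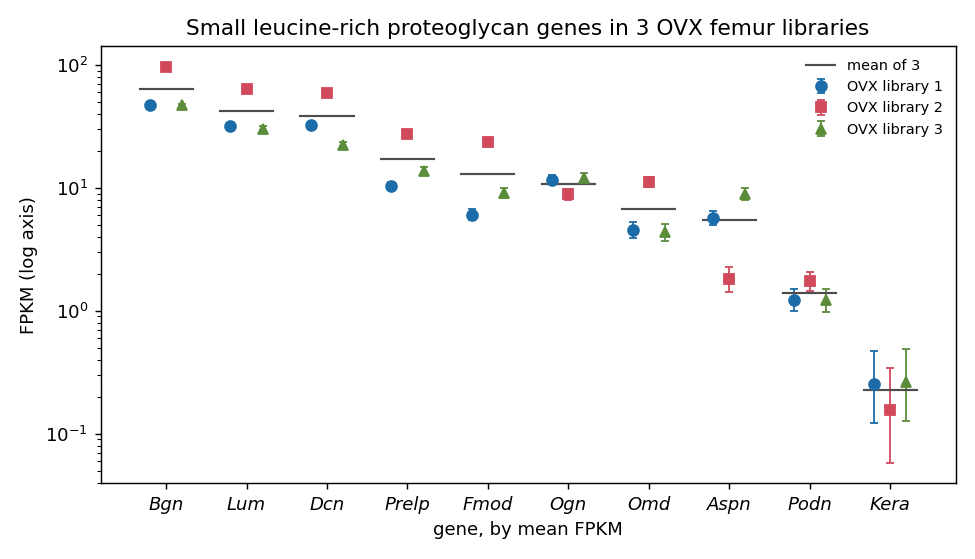
FPKM on a log axis for the 10 members, ordered by mean, with a point for each OVX library, its exact Poisson 95% interval of counting error and a bar for the mean of 3. Library 2 lies highest for Bgn, Lum, Dcn, Prelp, Fmod, Omd and Podn and lowest for Ogn, Aspn and Kera.

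The order of the members was only partly the same from library to library. Bgn ranked 1, Podn 9 and Kera 10 in each of the 3 libraries. Dcn ranked 2 in library 1 and 3 in the others, where Lum took rank 2, so these neighbours did not differ beyond their spread. Ogn moved furthest, from rank 4 in library 1 to rank 7 in library 2 and rank 5 in library 3. The means of Prelp, Fmod and Ogn also lay within 1 SD of Prelp or Fmod of each other, as did those of Omd and Aspn. Prelp nonetheless exceeded Fmod in each of the 3 libraries, whereas Ogn changed place with both, and Omd with Aspn.

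Listed gene length bears on this order. For all 10 members the listed length equalled the union of every annotated exon in GENCODE M21, retained introns included. Dcn has 2 transcripts annotated as retained introns and Bgn has 3, and their listed lengths are 5838 and 6099 bases. How much of those lengths the retained introns add was not measured. The longest principal transcript, an alternative chosen after seeing the data, has 1758 bases for Dcn and 2419 for Bgn. Per that length Bgn stood at 161 ± 72.1, Dcn at 127 ± 64.2 and Lum at 42.0 ± 18.9 reads per kilobase at the FPKM's depth scale (SD, n = 3). On that scale Dcn exceeded Lum in each of the 3 libraries, at 108, 199 and 74.9 against 32.0, 63.9 and 30.2. Reads that fell on exon bases outside the principal transcript were counted too, so these values are upper limits for that transcript. Podn changed from 1.40 to 1.88 ± 0.398, and the other members by a factor of 1.06 or less. With these lengths Podn exceeded Aspn in library 2, at 2.34 against 1.84.

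**Figure D2:**
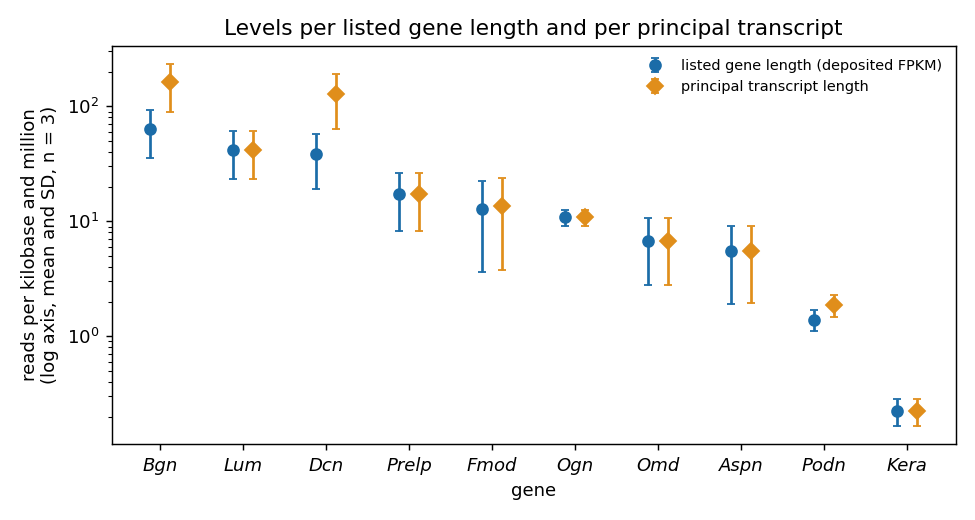
Mean and SD over 3 OVX libraries, on a log axis, of depth-scaled reads per kilobase for each member, once with the listed gene length (the deposited FPKM) and once with the longest principal transcript. Bgn, Dcn and Podn move, to 161, 127 and 1.88, and the other members stay within 1.06 times their FPKM.

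The 10 genes together took 0.0686% of reads in library 1 (exact Clopper-Pearson 95% interval 0.0674% to 0.0699%). Their share was 0.132% in library 2 (0.131% to 0.134%) and 0.0640% in library 3 (0.0628% to 0.0653%). Library 2 was thus above both others, by more than counting error. These intervals cover counting error alone, because reads that carry no molecular identifier may be copies of a molecule. In RNA of a whole tissue, fewer cells of a type and less RNA per cell cannot be told apart.

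All 9 members that passed the filter had reads that differed between the 3 OVX libraries by more than counting noise, in a chi-square test with a Benjamini-Hochberg adjusted p below 0.05. Over all genes tested, 38.7% did so, and a gene with more reads is called more easily. Between the highest and the lowest library, 7 members differed at least 2-fold on the log2(FPKM + 1) scale, against 5.89% of all genes tested. Of these, 6 were highest in library 2, as were 2.43% of all genes tested, and 1, Aspn, was lowest there, as were 2.51%. The median range over the 9 members was 1.2 (log2), against 0.17 over all genes tested. Without library 2, 4 of the 9 members were called, against 18.0% of genes, and 0 differed at least 2-fold, against 1.98%. Library 2 thus decided most of this spread. These tests compare libraries, not conditions.

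Among the class I members, Bgn and Dcn were higher in library 2 and Aspn was lower. Biglycan usually carries a pair of glycosaminoglycan chains and is abundant in mineralized matrix. Bgn (ENSMUSG00000031375, mm10 chromosome X, 73483602 to 73495933, plus strand) had 5012, 9960 and 4768 reads in libraries 1, 2 and 3, or 47.6, 96.9 and 47.3 FPKM. Library 2 was 2.04 and 2.05 times the others, between which no difference beyond counting noise was detected (chi-square test, adjusted p = 0.465). Without library 2 the mean was 47.4 ± 0.193 FPKM (SD, n = 2).

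Decorin, the main dermatan sulfate proteoglycan of fibrous tissue, binds type I collagen and TGF-beta. Dcn (ENSMUSG00000019929, chromosome 10, 97479609 to 97518143, plus strand) was at 32.6, 59.9 and 22.6 FPKM, on 3286, 5892 and 2178 reads. It was highest in library 2, and libraries 1 and 3 also differed, by 1.44-fold (chi-square test, adjusted p = 1.69e-42 without library 2). The ratio of Bgn to Dcn was 1.46, 1.62 and 2.10 in libraries 1, 2 and 3 per listed length, and 1.11, 1.23 and 1.59 per principal transcript.

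Asporin bears a run of aspartate in place of the glycosaminoglycan site, binds calcium and collagen, and restrains TGF-beta signalling in cartilage. Aspn (ENSMUSG00000021388, chromosome 13, 49544443 to 49567565, plus strand) was at 5.70, 1.82 and 8.97 FPKM, on 232, 72 and 349 reads. Library 2 was the lowest, and library 3 was 4.94 times and library 1 3.14 times its level (chi-square test over 3 libraries, adjusted p = 3.35e-39). The range of Aspn, 1.82 on the log2 scale, was the widest of the 10 members with a pseudocount of 1. Adding 5 FPKM instead made it 1.04, below Fmod, Dcn and Prelp at 1.37, 1.24 and 1.07, and without library 3 it was 1.25, below Fmod at 1.79 and Prelp at 1.31. Libraries 1 and 3 also differed from each other (adjusted p = 6.67e-06 without library 2).

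Of the class II members, Lum, Fmod, Prelp and Omd were all highest in library 2. Lumican is a keratan sulfate proteoglycan that limits the sideways growth of fibrils. Lum (ENSMUSG00000036446, chromosome 10, 97565128 to 97572703, plus strand) was at 32.0, 63.9 and 30.2 FPKM, on 1354, 2635 and 1223 reads. Between libraries 1 and 3 no difference beyond counting noise was detected (adjusted p = 0.182, chi-square test), and library 2 was 2.0 and 2.11 times their levels. Per listed length, Lum was 0.983, 1.07 and 1.34 times Dcn within a library, and per principal transcript 0.296, 0.321 and 0.403 times.

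Fibromodulin, which shares a collagen site with lumican and carries sulfated tyrosines, was the most raised in library 2. Fmod (ENSMUSG00000041559, chromosome 1, 134037254 to 134048277, plus strand) was at 6.07, 23.5 and 9.13 FPKM, on 347, 1311 and 499 reads. Library 2 was 3.88 times library 1 and 2.58 times library 3 (chi-square test, adjusted p = 1.83e-158). The ratio of Lum to Fmod was accordingly 5.27, 2.71 and 3.31. Without library 2 the mean of Fmod fell from 12.9 to 7.60 ± 2.16 FPKM (SD, n = 2).

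Prelp, whose product has a basic end that binds heparan sulfate and links basement membranes to collagen, had 10.4, 27.3 and 13.9 FPKM from 651, 1663 and 830 reads. Library 2 was 2.62 and 1.97 times the others (chi-square test, adjusted p = 1.87e-117), and libraries 1 and 3 differed as well (adjusted p = 7.20e-06 without library 2). The gene lies at chromosome 1, 133910304 to 133921414, on the minus strand, and shares 350 exon bases with the antisense gene Gm15851. No source used here says whether the counting used strand, so reads of that stretch cannot be assigned with certainty.

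Osteomodulin, also called osteoadherin, binds hydroxyapatite and is made by mature osteoblasts. Omd (ENSMUSG00000048368, chromosome 13, 49582462 to 49592822, plus strand) was at 4.55, 11.3 and 4.36 FPKM, on 177, 427 and 162 reads. Library 2 was 2.47 and 2.59 times the others, between which no difference beyond counting noise was detected (chi-square test, adjusted p = 0.757). The mean was 4.46 ± 0.140 FPKM without library 2 (SD, n = 2).

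Keratocan (chromosome 10, 97606879 to 97613692, plus strand) rested on 10, 6 and 10 reads. Its exact Poisson 95% intervals ran from 0.122 to 0.467, from 0.0573 to 0.340 and from 0.127 to 0.488 FPKM in libraries 1, 2 and 3. They overlap, so no difference was detectable at this depth.

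Osteoglycin, of class III and also called mimecan, had the lowest CV of the 10 members. Ogn (ENSMUSG00000021390, chromosome 13, 49608046 to 49624501, plus strand) was at 11.7, 8.93 and 12 FPKM, on 518, 386 and 511 reads. Library 2 was the lowest, with library 3 1.35 times its level (chi-square test, adjusted p = 2.64e-05), and libraries 1 and 3 were indistinguishable at this depth (adjusted p = 0.921). Its CV of 15.6% compares with 44.7% for Bgn and 72.2% for Fmod.

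Podocan, the class V member, is a collagen-binding protein that slows smooth muscle cell growth. Podn (ENSMUSG00000028600, chromosome 4, 108014791 to 108096445, minus strand) was at 1.23, 1.74 and 1.22 FPKM, on 91, 125 and 86 reads. Library 2 was 1.41 and 1.43 times the others, with an adjusted p of 0.0412 by the chi-square test. That call was lost with no filter on low values (adjusted p = 0.0638) and without library 3 (0.0619), and over all alternatives the adjusted p ran from 0.0327 to 0.919.

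Several members are neighbours in the genome. Aspn, Omd and Ogn follow one another on the plus strand of chromosome 13, with 14896 and 15223 bases between them and 0 other listed genes lying within those gaps. Aspn was lowest in library 2, Omd was highest there, and Ogn was slightly lower. The ratio of Aspn to Omd was 1.25 in library 1, 0.161 in library 2 and 2.06 in library 3. The ratio of Ogn to Omd was 2.57, 0.792 and 2.76, so Omd exceeded Ogn in library 2 alone. Exons of Aspn share 7 bases with those of Cenpp on the minus strand.

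The other measurable neighbours shared their highest library, as 7 of the 10 members did. Dcn and Lum, 46984 bases apart on chromosome 10, were both highest in library 2, but libraries 1 and 3 differed in Dcn and not beyond counting noise in Lum, while Kera, 34175 bases beyond Lum, stayed at the limit of detection. Prelp and Fmod, on opposite strands of chromosome 1 with 115839 bases between them and no protein-coding gene in that gap, were both highest in library 2 and lowest in library 1. The ratio of Fmod to Prelp was 0.583, 0.862 and 0.657. Epyc, the epiphycan gene of growth plate cartilage and a close relative, was named after its values were seen. It had 0, 94 and 0 reads, or 2.18 FPKM in library 2.

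**Figure D3:**
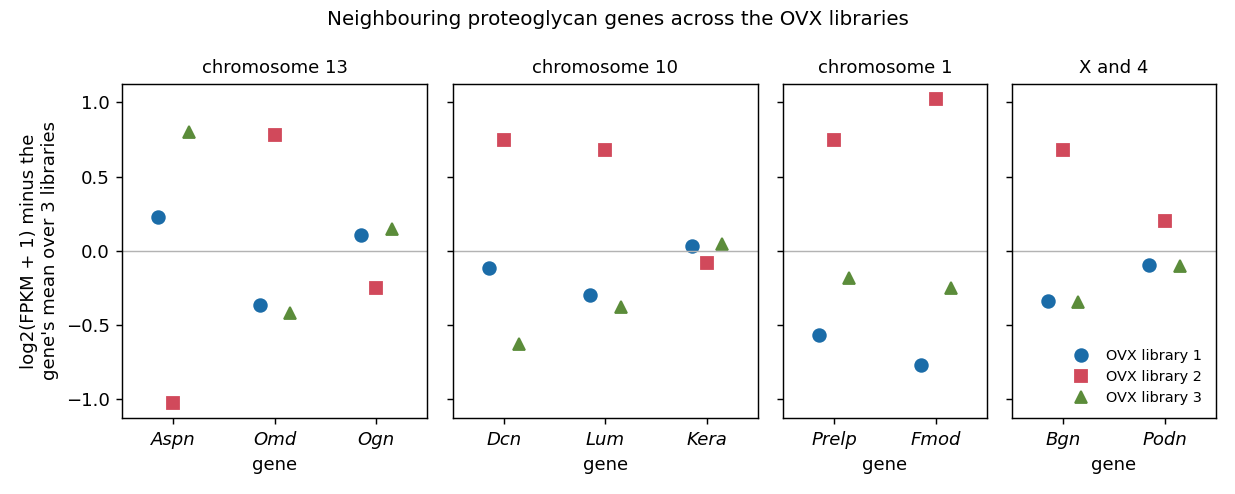
log2(FPKM + 1) of each member in each OVX library, minus the gene's own mean over the 3 libraries, with genes of a chromosome side by side in genomic order. Omd lies above its mean in library 2 and its neighbours Aspn and Ogn below theirs, whereas Prelp with Fmod and Dcn with Lum share their highest library.

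The shares of the members in the summed FPKM differed unequally between libraries. Bgn made up 31.3%, 32.8% and 31.5% of the summed FPKM and Lum 21%, 21.6% and 20.2% in libraries 1, 2 and 3. Dcn took 21.4%, 20.3% and 15%. Fmod took 3.99%, 7.97% and 6.09%, and Aspn 3.75%, 0.614% and 5.98%. Ogn fell to 3.02% in library 2, from 7.68% and 8.03% in the others. The shares of Bgn and Lum had SDs of 0.819 and 0.740 percentage points, and those of Dcn, Ogn and Aspn 3.40, 2.80 and 2.70 (n = 3). Per principal transcript Dcn took 36%, 34.1% and 27.2%, Lum 10.6%, 10.9% and 11%, and Bgn 39.9%, 41.8% and 43.3% of the sum, so the shares of Dcn and Lum depend on the length used.

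Type I collagen is the main partner of these proteins in bone, and Col1a1 rose more in library 2 than most members did. Col1a1 had 614, 1597 and 364 FPKM. Per 1000 FPKM of Col1a1, Bgn was at 77.5, 60.7 and 130 FPKM, Dcn at 53.1, 37.5 and 61.9, and Lum at 52.1, 40.0 and 82.9. All 3 ratios were lowest in library 2 and highest in library 3. Aspn had the widest ratio, at 9.29, 1.14 and 24.6, and Prelp was level between libraries 1 and 2, at 17.0 and 17.1, with 38.1 in library 3. Fmod had 9.89, 14.7 and 25.1, so its lowest ratio was in library 1.

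Genes of the same matrix were read beside the members. Of 18 fibril-associated collagens, all 18 were called by the chi-square test, against 38.7% of all genes tested. In library 2, 15 of them were highest and 0 lowest, against 34.8% and 36.8% of all genes tested. Only 14 reached 1 FPKM in both libraries 1 and 3. Col9a1, Col9a2 and Col9a3 passed the filter only through library 2, which set their direction beforehand. Over all 18, Col9a1, Col9a2 and Col9a3 included, the median difference of library 2 from the mean of libraries 1 and 3 was 1.36 (log2). Their inclusion raises that median, so it cannot be ranked against that of the members. The median difference was 1.02 for the 9 members past the filter and -0.0039 for all genes tested. The cartilage collagen Col9a2 had the widest range, with 0.187, 51.4 and 0.352 FPKM. Of 17 tested genes that process and cross-link collagen, 16 were called, or 94.1% against 38.7% of all genes tested, 15 of them highest in library 2. Pcolce2 and Loxl4 passed the filter only through library 2. Those called include Serpinh1, the collagen chaperone, at 65.8, 168 and 63.5 FPKM, and Lox, a lysyl oxidase, at 10.1, 22.3 and 8.61. The proteases that cut the core proteins had 7 of 8 tested genes called, or 87.5%, 5 highest in library 2, with the collagenase Mmp13 at 28.8, 214 and 103 FPKM.

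Genes that add the sugar chains were called about as often as all genes tested. Of 22 tested genes of linker, chondroitin and dermatan sulfate synthesis, 9 were called, or 40.9% against 38.7% of all genes, 8 of them highest in library 2, and 2 reached 2-fold. These were Ust, a uronyl sulfotransferase, at 1.28, 3.67 and 1.54 FPKM, and Chst11, a chondroitin sulfotransferase, at 10.8, 23.3 and 13.6. By direction, called or not, 16 of the 22 were highest and 1 lowest in library 2, against 34.8% and 36.8% of all genes tested. B3gat3, which completes the linker, did not pass the test, at 35.4, 37.4 and 34.8 FPKM. Of 8 tested genes of keratan sulfate synthesis and tyrosine sulfation, 3 were called, or 37.5%, 1 highest and 2 lowest in library 2, and 0 reached 2-fold. Tpst2, which sulfates tyrosines, had 27.3, 24.8 and 30.0 FPKM. The median differences of library 2 were 0.14 and -0.034 (log2) for these lists.

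Signalling partners differed by smaller folds. All 13 TGF-beta ligands, receptors and binding proteins were tested and 12 were called, or 92.3% against 38.7% of all genes tested. Of the 13, 7 were highest and 3 lowest in library 2, against 34.8% and 36.8% of all genes tested. On the log2(FPKM + 1) scale 0 reached 2-fold, against 5.89%. In FPKM, Ccn4 and Ltbp3, which holds latent TGF-beta, both reached a ratio of 2.11 or more. The ligand Tgfb1 had 60.1, 54.1 and 57.7 FPKM the matricellular gene Ccn4, listed as Wisp1, 7.82, 14.4 and 6.81, and Ltbp3 6.38, 13.5 and 8.22. Of 10 tested cell surface receptors of the core proteins, 4 were called, or 40% against 38.7% of all genes tested, and 0 reached 2-fold, against 5.89%. The lipoprotein receptor Lrp1, which takes up decorin, had 15.9, 23.9 and 17.6 FPKM, and Tlr2, a receptor of free biglycan, did not pass the test, at 10.7, 12.2 and 11.7. Among 8 relatives of the members, with no filter, 6 were highest and 2 lowest in library 2. Those highest were led by chondroadherin, Chad, at 2.96, 188 and 23.1 FPKM. Those lowest rested on few reads, Nyx on 38, 23 and 25 and Optc on 2, 1 and 3.

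**Figure D4:**
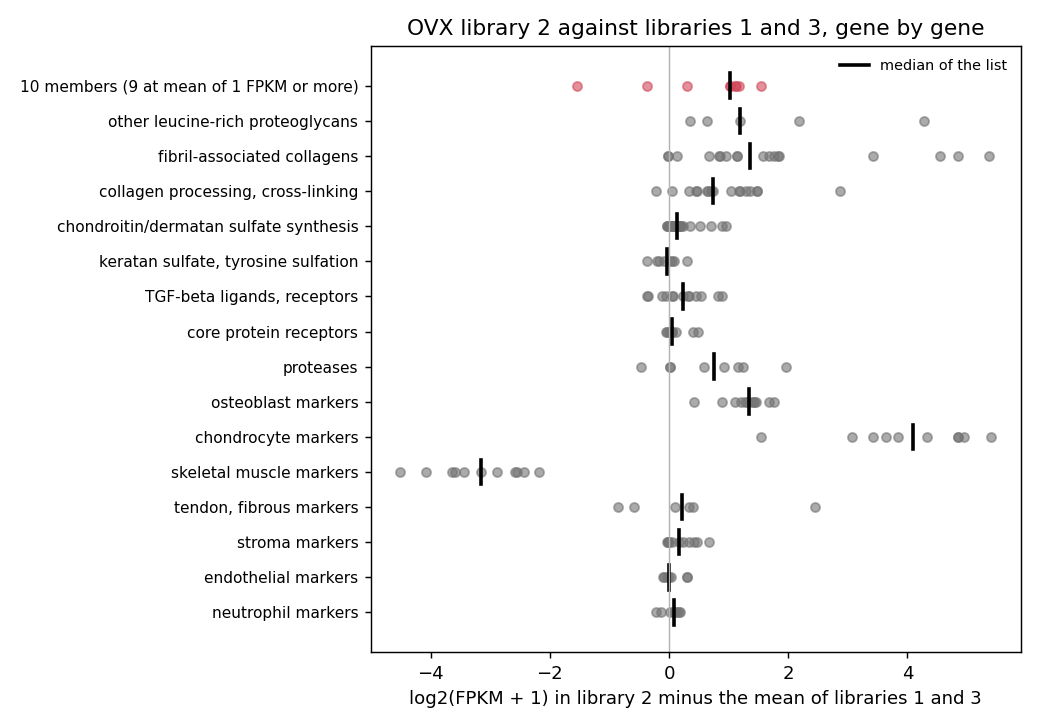
For each gene with a mean of at least 1 FPKM, log2(FPKM + 1) in OVX library 2 minus the mean of libraries 1 and 3, by list, with a bar at each list's median. Some genes, such as Col9a1, Col9a2 and Col9a3, reach that mean only through library 2. The members' median is 1.02, that of collagen processing 0.73 and that of fibril-associated collagens 1.36, both collagen lists being raised by such genes. The lists of sugar chain synthesis and receptors lie near 0.

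Marker lists of cell types went different ways in library 2, where 34.8% of all genes tested were highest and 36.8% lowest. All 12 osteoblast markers were highest in library 2, with a median difference of 1.34 (log2), and all 11 muscle markers were lowest there, with a median of -3.15. All 11 chondrocyte markers listed, with no filter, were also highest in library 2, and 2 of them reached 1 FPKM in both libraries 1 and 3. Of these 11, Snorc was at 0 reads in library 1, and 0 were at 0 in all 3 libraries. All 8 osteoclast markers, at 398, 1107 and 833 FPKM in sum, and all 7 adipocyte markers, at 160, 326 and 103, were highest in library 2 as well. Of 6 osteocyte markers 3 were highest and 2 lowest in library 2, at 86.4, 136 and 107 FPKM in sum. Sost was among the lowest, at 36.5, 24.2 and 32.6 FPKM. Of 6 synovium markers 2 were highest and 1 lowest there, at 53.8, 109 and 113 FPKM in sum. Tendon and fibrous markers were mixed, with 3 of 6 tested genes highest and 2 lowest in library 2 and summed levels of 10.4, 30.2 and 22.5 FPKM. The 11 stroma markers had 5 highest in library 2, a median difference of 0.16 and summed levels of 371, 414 and 403 FPKM. Of 8 erythroid markers 0 were highest in library 2 and 7 in library 3. Of 8 neutrophil markers 5 were highest and 2 lowest in library 2. Some genes stand on several lists, so these lists are not independent. Among the collagens, Col1a1 and Col1a2 are also osteoblast markers, Col2a1 and Col9a1 chondrocyte markers and Col3a1 a stroma marker. Ctsk and Mmp9 are proteases and osteoclast markers, Phex is an osteoblast and an osteocyte marker, and Kdr a receptor and an endothelial marker. The part of these cell types in the members' values was not tested. The sums of endothelial markers, at 58.3 to 58.7 FPKM, and of macrophage markers, at 2994 to 3042 FPKM, hardly moved. Their median differences were -0.0051 and -0.00012 (log2). Lyz2, at 2753 to 2819 FPKM, made up most of the macrophage sum, and Csf1r was at 33.6, 47.2 and 38.3 FPKM. In each of these lists 4 of 7 markers were called, or 57.1% against 38.7% of all genes tested.

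The genes most like each member were taken as those with the smallest root-mean-square difference of centred log2(FPKM + 1) over the 3 libraries, among 11763 protein-coding genes. For Bgn these were Sgms2, Fap and Boc, and for Lum P3h1, Fap and Boc, with differences of 0.0093 to 0.027. P3h1 encodes a prolyl hydroxylase of collagen and Fap a protease of fibroblasts. C1qtnf6, Entpd3 and Copz2 lay nearest to Dcn (0.056 to 0.089), Ptgis, Gdf10 and Nmb to Fmod (0.028 to 0.071), and Itga10, a collagen receptor chain of chondrocytes, with Nupr1 and Lpar3 to Omd (0.0025 to 0.031). Unc5b, Mrc2 and Vit lay nearest to Prelp (0.019 to 0.027). For Aspn the nearest were Gm17622, Srp54b and Tmem52 (0.070 to 0.15), and 1 gene in all lay within 0.1 of it. Within 0.1 of Ogn and Podn lay 796 and 1807 genes, so that a likeness to those members says little. Spata24, Ndufaf2 and Tbx15 were nearest to Ogn, and Spg11, Lgals1 and Bmpr1a to Podn. With 3 libraries these profiles have 3 points each, and most of them turn on library 2.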

How the data were processed

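Femoral RNA of OVX mice was sequenced, and the table deposited by the authors holds FPKM and a length for each gene. Per the submitters' processing notes, Trimmomatic, FastQC, STAR and featureCounts were used with the build mm10; no source used here gives versions, settings, strandedness or annotation. Of the table's columns of values, 3 matched the library names of OVX samples. Another 3 matched no label and were not used, so the comparison of zingerone with OVX by limma, planned from the labels, was not run. The labels name no separate animals, so SDs measure the spread between these libraries, which may be in part technical. The chi-square p-values set differences between libraries against counting noise alone, not against variation between animals.

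Deposited FPKM multiplied by gene length were whole multiples of 1 read, within 0.01 read, for 100% of values in each library, which gave the reads per gene (16581579 to 17017907 in all). A count of 0 allows 3 reads. For genes whose mean was 1 FPKM or more, a chi-square test set each library's reads against its sum of listed reads, with Benjamini-Hochberg adjustment over all genes tested and a threshold of 0.05. This test was tested on simulated data. Ranges are of log2(FPKM + 1), which understates differences of low genes. The design text's DESeq2 and limma analyses were not rerun. The members, gene lists and markers were chosen with earlier results of these data known. The genes named are all members, the 3 most alike genes for each member past the filter, and from each list those highest in level or widest in range. Listed lengths and exons were compared with GENCODE M21, which had the same start and end for all 10 members. All listed genes were in the table, Ccn4 as Wisp1. Alternatives were other pseudocounts, filters, scalings, library totals, transcript lengths and each library left out. Tests used scipy 1.17.1 and numpy 2.4.6, tables pandas 2.3.3 and figures matplotlib 3.10.9, under Python 3.11.15.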

Additional observations from a re-analysis of the deposited data

How the results depend on the processing

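The count of 7 members that differed at least 2-fold was 4 with a pseudocount of 5 and ran from 0 to 6 with 1 library left out, the 0 being without library 2. It was 7 with a pseudocount of 0.1, without the filter, with a minimum mean of 5 FPKM and under both other scalings. The count of 9 members called by the chi-square test ran from 4 (without library 2) to 9 with 1 library left out. Over all genes, the 825 that differed at least 2-fold became 1254 and 247 under pseudocounts of 0.1 and 5, 307 with a minimum mean of 5 FPKM, and 521, 278 and 603 without library 1, 2 and 3. The 5418 called became 3478, 2527 and 4177. Per principal transcript the mean levels of Dcn, Bgn and Podn moved to 127, 161 and 1.88, an alternative chosen after seeing the data. No member's mean moved by 1 SD under the other scalings. The median-of-ratios factors were 0.9998 to 1.0002, so that setting left the values as they were and is no check of the counts or means. The upper-quartile factors, 0.991 to 1.01, were also too near 1 to move a mean by 1 SD. A mean of 3 cannot move that far when 1 library is left out. No paired analysis was possible because the columns of only 1 group could be tied to samples. The other planned settings of the zingerone comparison were not run for the same reason. Depth limits Kera, with 6 to 10 reads, and Podn, with 86 to 125.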
